A study of Mus musculus with 2 samples.

Results

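Long non-coding RNA (lncRNA) genes that lie away from protein-coding genes carried 1013 of the 21546 usable H2AZ peaks in neural progenitor cells (4.7%). These peaks overlapped the 1 kb on either side of an end of an annotated lncRNA gene by at least 1 bp, and had their midpoint outside every protein-coding gene and over 5 kb from any coding gene end. They lay at 1031 lncRNA genes of 12637 in the RefSeq table and are called intergenic lncRNA peaks here. Of the 1031 genes, 65 (6.3%) overlapped a coding gene elsewhere along their length, so the word intergenic holds for the peak and not always for the whole gene. Just inside the limit were the peaks at Chrna1os (5065 bp from Chrna1, score 9.38), Gm51916 (5142 bp from Sp2, score 7.51) and Gm20556 (5164 bp from Arhgap8, score 12.83). Just outside were those at Gm40387 (4934 bp from Slc6a6, score 6.26), Gm34605 (4959 bp from Rbm5, score 8.95) and 4933404O12Rik (4989 bp from Ift22, score 17.3).

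The study mapped H2AZ by chromatin immunoprecipitation with sequencing (ChIP-seq) in neural progenitor cells taken from brains of C57BL/6 mice on embryonic day 13. One library came from the H2AZ immunoprecipitation and 1 from input DNA of the same kind of cells, and a single list of peaks was deposited. With 1 library per group no value has a replicate check and no test was made. Intervals are 95% exact (Clopper-Pearson, or order statistics for a median) and cover counting error only. How many embryos the library came from was not stated in the labels, and a peak list holds no RNA level, so the labelled cell type was not checked against marker genes.

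H2AZ is a variant of histone H2A that is placed mainly in the nucleosomes beside the start of genes and at enhancers, and it is linked with both active and poised chromatin. Intergenic lncRNAs are transcribed by RNA polymerase II from promoters much like those of coding genes, but are often shorter, expressed at lower levels and more restricted in tissue. Some act on neighbouring genes, some act as RNA molecules elsewhere in the cell, and others mainly carry small nucleolar RNAs (snoRNAs) or microRNAs (miRNAs) in their introns or exons.

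The sequences at these peaks differed in how many CpG dinucleotides they held, and 9 starts with many or few of them are shown. Each line holds 300 bases, from 250 before to 50 after an annotated start that lies inside the peak, 5′ to 3′ along the transcript. They come from RefSeq on GRCm38.p6, with every CG in capitals. The first is Gm41301, at the highest-scoring intergenic lncRNA peak (28.93; chr15:37135692-37135991, minus strand). Gm33628 (28.64; chr12:108758142-108758441, minus strand) and 9430091E24Rik (27.44; chr8:111145449-111145748, minus strand) have the scores next below it. Snhg20, a snoRNA host, follows (25.65; chr11:117076533-117076832, plus strand), then Dubr, described in muscle cell differentiation (21.06; chr16:50732724-50733023, minus strand). Oip5os1, also known as Cyrano, directs the decay of a miRNA in brain (16.19; chr2:119594046-119594345, plus strand). Sox1ot is transcribed across the Sox1 locus (9.55; chr8:12385521-12385820, plus strand). Kantr is an X-linked lncRNA studied in neurons (8.95; chrX:152327444-152327743, minus strand). Lncenc1, described in embryonic stem cells, is the last (8.65; chr13:97434720-97435019, plus strand).
Gm41301: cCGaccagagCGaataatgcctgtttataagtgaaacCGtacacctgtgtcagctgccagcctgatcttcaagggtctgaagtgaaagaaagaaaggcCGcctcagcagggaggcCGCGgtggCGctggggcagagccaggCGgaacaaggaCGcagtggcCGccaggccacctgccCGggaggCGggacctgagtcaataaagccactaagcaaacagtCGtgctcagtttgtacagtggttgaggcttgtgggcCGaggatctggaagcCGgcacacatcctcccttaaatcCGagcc
Gm33628: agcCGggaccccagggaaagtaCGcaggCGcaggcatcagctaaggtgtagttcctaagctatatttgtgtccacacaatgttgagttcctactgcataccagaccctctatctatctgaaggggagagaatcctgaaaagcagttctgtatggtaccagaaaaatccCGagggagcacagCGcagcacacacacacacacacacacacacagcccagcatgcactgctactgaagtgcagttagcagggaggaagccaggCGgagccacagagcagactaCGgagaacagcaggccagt
9430091E24Rik: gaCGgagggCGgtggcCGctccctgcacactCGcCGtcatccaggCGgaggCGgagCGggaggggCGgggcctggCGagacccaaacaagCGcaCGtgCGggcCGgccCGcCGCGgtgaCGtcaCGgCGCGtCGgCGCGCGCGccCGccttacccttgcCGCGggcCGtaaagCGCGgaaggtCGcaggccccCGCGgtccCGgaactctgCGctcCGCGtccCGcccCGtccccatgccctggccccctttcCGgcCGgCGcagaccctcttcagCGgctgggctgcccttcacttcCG
Snhg20: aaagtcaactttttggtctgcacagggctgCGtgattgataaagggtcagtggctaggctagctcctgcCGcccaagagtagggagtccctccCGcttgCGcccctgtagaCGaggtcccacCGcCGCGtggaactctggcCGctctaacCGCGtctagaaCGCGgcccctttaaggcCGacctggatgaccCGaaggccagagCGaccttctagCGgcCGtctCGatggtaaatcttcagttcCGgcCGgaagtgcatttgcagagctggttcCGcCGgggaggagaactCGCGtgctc
Dubr: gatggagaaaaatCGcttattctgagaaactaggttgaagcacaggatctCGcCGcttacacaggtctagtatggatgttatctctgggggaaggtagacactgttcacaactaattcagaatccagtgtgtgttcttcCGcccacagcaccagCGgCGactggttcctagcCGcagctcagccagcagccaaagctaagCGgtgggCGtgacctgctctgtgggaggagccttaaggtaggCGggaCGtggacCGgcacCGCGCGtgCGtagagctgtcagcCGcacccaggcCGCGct
Oip5os1: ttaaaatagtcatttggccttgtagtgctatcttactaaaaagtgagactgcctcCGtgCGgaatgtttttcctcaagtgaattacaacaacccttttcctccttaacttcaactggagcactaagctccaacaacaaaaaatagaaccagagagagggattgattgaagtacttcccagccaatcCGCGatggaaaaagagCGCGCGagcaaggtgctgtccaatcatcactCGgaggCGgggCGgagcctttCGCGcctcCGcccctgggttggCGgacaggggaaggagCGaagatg
Sox1ot: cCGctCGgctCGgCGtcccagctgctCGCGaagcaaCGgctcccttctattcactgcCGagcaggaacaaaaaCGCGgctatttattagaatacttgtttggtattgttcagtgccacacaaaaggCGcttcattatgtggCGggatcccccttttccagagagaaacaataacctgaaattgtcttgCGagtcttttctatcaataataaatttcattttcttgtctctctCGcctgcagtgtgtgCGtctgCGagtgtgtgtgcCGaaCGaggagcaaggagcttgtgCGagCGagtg
Kantr: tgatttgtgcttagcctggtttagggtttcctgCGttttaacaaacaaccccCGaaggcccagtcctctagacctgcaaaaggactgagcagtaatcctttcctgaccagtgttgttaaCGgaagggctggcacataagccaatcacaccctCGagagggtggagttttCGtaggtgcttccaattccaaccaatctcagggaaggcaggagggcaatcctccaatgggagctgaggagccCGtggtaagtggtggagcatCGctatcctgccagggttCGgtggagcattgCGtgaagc
Lncenc1: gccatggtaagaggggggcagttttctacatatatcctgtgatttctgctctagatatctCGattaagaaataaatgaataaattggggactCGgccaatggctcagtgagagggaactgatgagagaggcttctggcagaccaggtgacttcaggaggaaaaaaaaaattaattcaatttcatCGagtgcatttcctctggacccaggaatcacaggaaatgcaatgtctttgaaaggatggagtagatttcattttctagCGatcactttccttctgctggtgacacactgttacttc
The number of CG in these windows was 16 for Gm41301, 7 for Gm33628, 46 for 9430091E24Rik, 25 for Snhg20, 19 for Dubr, 15 for Oip5os1 and 20 for Sox1ot. It was 9 for Kantr and 4 for Lncenc1. Few CG were found at high scores too, as at Gm33628.

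Intergenic lncRNA peaks scored slightly above the other peaks that lay as far from coding genes, and well below peaks at coding gene ends. The score, which the authors gave to each peak without a unit, was used only to rank and describe peaks within this list. The median was 8.65 (interval 8.35 to 8.83) for the 1013 intergenic lncRNA peaks, with quartiles of 6.86 and 11.63 and a range of 4.47 to 28.93. It was 7.76 (7.76 to 7.95) for the 4719 other peaks away from coding genes and 16.7 (16.41 to 16.84) for 11124 peaks within 1 kb of a coding gene end. A score at or above the median of the whole list, 11.93, was held by 24% (21.4 to 26.7%) of intergenic lncRNA peaks. The same was true of 13.1% (12.2 to 14.1%) of the other distant peaks and 77.1% (76.3 to 77.9%) of peaks at coding gene ends. Widths followed the same order, with medians of 1720 bp (1690 to 1760 bp), 1572 bp (1559 to 1584 bp) and 2180 bp (2168 to 2192 bp). Among the 1013 peaks the Spearman correlation of score and width was 0.35, a description of peaks from 1 library.

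**Figure D1:**
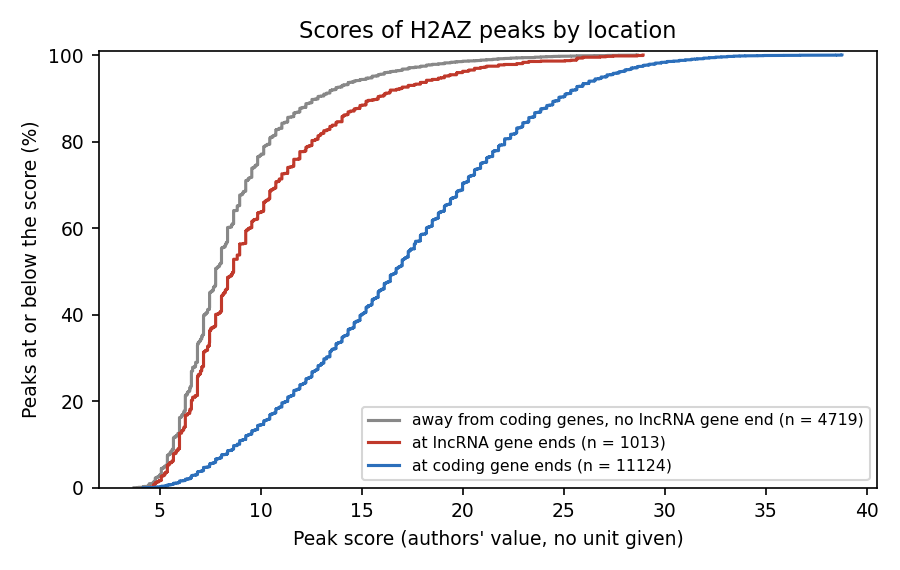
Cumulative share of peaks (y axis, percent) at or below each score (x axis, the authors' value without a unit) for 1013 intergenic lncRNA peaks (red), 4719 other peaks away from coding genes (grey) and 11124 peaks at coding gene ends (blue). The red curve runs close to the grey one, with medians of 8.65 and 7.76, and far to the left of the blue one, with a median of 16.7.

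Seen from the distant peaks, 1013 of 5732 (17.7%) lay at a lncRNA gene end, and this share was larger among peaks of higher score. It was 14.3% (12.1 to 16.8%) of 895 peaks with a score under 6 and 14.5% (13 to 16.1%) of 1954 peaks from 6 to under 8. From 10 to under 15 it was 23.2% (20.7 to 25.9%) of 1076 peaks, and from 15 to under 20 it was 28.7% (23.4 to 34.4%) of 279. At 20 or more, 38 of 105 peaks (36.2%, 27.0 to 46.1%) lay at a lncRNA gene end. The intervals of the lowest and the highest band do not overlap, and at every score most distant peaks had no annotated lncRNA gene end beside them. After shifts of 10 kb to either side, 8.6 and 8.86% of distant peaks met a lncRNA gene end, against 17.7% unshifted. After shifts of 1000 kb it was 4.24 and 4.03%, so some of the 1013 peaks would meet the rule by position alone.

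**Figure D2:**
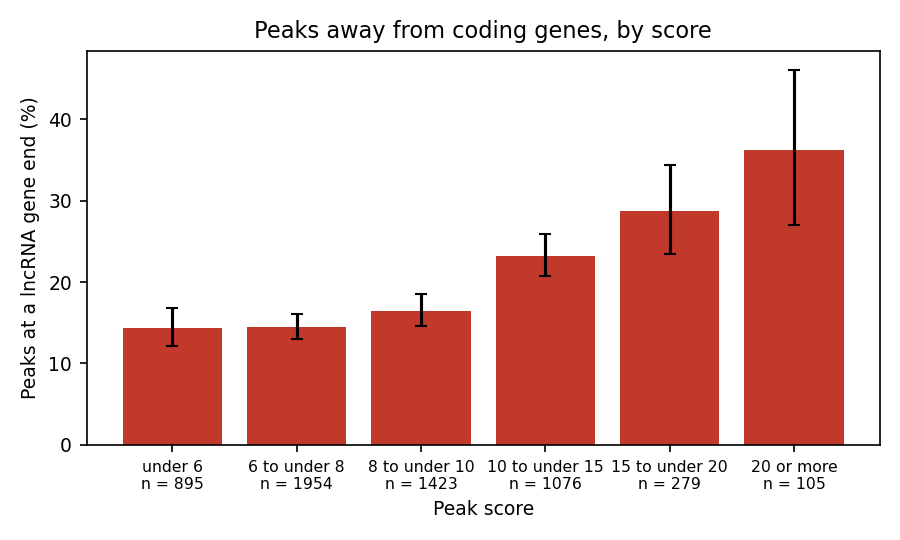
Share of the 5732 peaks away from coding genes that lay at a lncRNA gene end (y axis, percent) in 6 bands of peak score (x axis), with 95% Clopper-Pearson intervals as error bars and the number of peaks under each bar. The share runs from 14.3% under a score of 6 to 36.2% at 20 or more.

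Seen from the genes, 8288 lncRNA genes had an end outside coding genes and over 5 kb from their ends, and 1026 of them (12.4%, 11.7 to 13.1%) had an intergenic lncRNA peak. The other 5 of the 1031 genes had ends slightly nearer to a coding gene than the midpoint of their peak. Over all 12637 lncRNA genes, including those beside coding genes, 23.6% had a listed peak within 1 kb of an end, and over 21770 protein-coding genes 55.4% did. Better supported annotations had a peak more often. Genes with a curated RefSeq transcript (an NR accession) had one in 339 of 2123 cases (16.0%, 14.4 to 17.6%), and genes known only from predicted transcripts in 687 of 6165 (11.1%, 10.4 to 12%). The 273 genes with a symbol of their own, rather than a Gm number, a LOC number or a Rik clone name, had a peak in 66 cases (24.2%, 19.2 to 29.7%), against 776 of 6709 genes with a Gm number (11.6%, 10.8 to 12.4%). By gene length it was 14.5% (12 to 17.4%) under 2 kb, 14.5% (12.8 to 16.3%) from 2 to 5 kb and 11.0% (9.71 to 12.4%) from 20 to 100 kb, and the intervals of the last pair do not overlap.

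Peaks marked the start of these genes more often than their far end. The rule treats both ends alike, and the strand, taken from the RefSeq promoter table, was known for 775 of the 1013 peaks. Among the 542 of these at genes of 5 kb or more, where the ends are well apart, 395 lay at the 5′ end (72.9%, 68.9 to 76.6%) and 147 at the 3′ end. With a score of 15 or more, 60 of 66 lay at the 5′ end (90.9%, 81.3 to 96.6%), and with a score below the list median 287 of 410 did (70.0%, 65.3 to 74.4%). At curated genes the share was 82.9% (77.0 to 87.9%, n = 199) and at predicted genes 67.1% (61.8 to 72.0%, n = 343). The median score was 8.83 (8.65 to 9.25) at 5′ ends and 8.05 (7.36 to 8.35) at 3′ ends.

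The same order held when each gene served as its own comparison. Of 3464 lncRNA genes of 5 kb or more with both ends away from coding genes and a known strand, 330 had a listed peak at the 5′ end alone, 112 at the 3′ end alone, 19 at both and 3003 at neither. Of 13411 coding genes of that length, wherever they lay, 7602 had one at the 5′ end alone, 251 at the 3′ end alone and 575 at both. A 5′ end thus carried a peak in 10.1% of these lncRNA genes and 61.0% of these coding genes, and a 3′ end in 3.78 and 6.16%.

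Among midpoints near an annotated start, more lay downstream than upstream, with peaks at both gene ends included. The rule asks for a peak within 1 kb of a gene end, so nearness to a start is in large part set by it. It also tilts the direction, because a peak at the 3′ end of a short gene lies downstream of the gene's outermost start. Direction was not counted for 5′ end peaks alone, so no preference is drawn from it. Of the 775 peaks with a known start of their gene, 474 (61.2%, 57.6 to 64.6%) had their midpoint within 1 kb of one, and 469 (60.5%) covered one. Among the 474, 301 midpoints (63.5%, 59.0 to 67.8%) were downstream, and the median position was 112 bp downstream (quartiles -86 and 376 bp). The start of an lncRNA is often less precisely annotated than that of a coding gene, and no transcript data were used to check it.

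**Figure D3:**
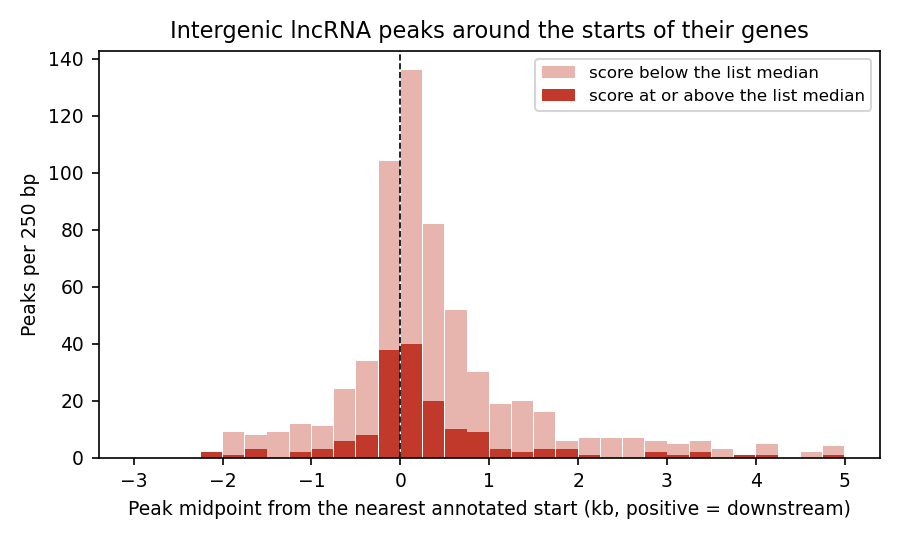
Number of intergenic lncRNA peaks per 250 bp (y axis) by the distance of the peak midpoint from the nearest annotated start of its gene (x axis, kb, downstream positive), with scores at or above the list median in dark red and lower scores in light red. The plot holds 627 of the 775 peaks with a known start (6 lay further upstream and 142 further downstream), and the tallest bar, with 136 peaks, is the first 250 bp downstream.

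The bases around the start differed between lncRNA genes with and without a peak. For each gene the 300 bases around its outermost start were taken from the promoter table, and the observed to expected ratio of CpG was computed from its counts of C, G and CG. The 602 lncRNA 5′ ends with an intergenic lncRNA peak had a median ratio of 0.34 (quartiles 0.216 and 0.529) and a median GC content of 50.9%. The 4827 equally distant lncRNA 5′ ends without a listed peak had a median ratio of 0.195 (quartiles 0.102 and 0.316) and a GC content of 46.3%. Coding genes had medians of 0.763 with a peak at the 5′ end and 0.227 without.

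With CpG-rich defined as a ratio of at least 0.6 and a GC content of at least 50%, 95 of the 602 lncRNA starts with a peak were CpG-rich (15.8%, 13 to 18.9%), against 90 of the 4827 without (1.86%, 1.5 to 2.29%). With limits of 0.75 and 55%, chosen after seeing the data, the shares were 8.31% (6.23 to 10.8%) and 0.394% (0.237 to 0.614%). Read the other way, 95 of 185 CpG-rich distant lncRNA starts had a peak (51.4%, 43.9 to 58.8%), and 507 of 5244 that were not CpG-rich did (9.67%, 8.88 to 10.5%). For coding genes these shares were 81.1% (80.3 to 82.0%) and 29.4% (28.5 to 30.3%). Most intergenic lncRNA peaks at 5′ ends therefore lay at starts that were not CpG-rich, although CpG-rich starts had a peak more often.

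The score moved with this composition. CpG-rich starts made up 3.64% (1.58 to 7.04%) of 220 starts whose peak scored under 8, 13.5% (9.34 to 18.6%) of 230 from 8 to under 12, 24% (15.8 to 33.7%) of 96 from 12 to under 18 and 58.9% (45.0 to 71.9%) of 56 at 18 or more. Across the 602 starts the Spearman correlation of score and CpG ratio was 0.33, a description over genes that share 1 library. The motif GGGCGG, which contains a CG and is the core of sites of Sp family factors, was found on either strand in 27.9% of the 602 windows, in 6.38% of the 4827 without a peak and in 35.9% of all 27024 lncRNA and coding windows of this length. The TATA motif TATAAA was found in 14.1, 18.9 and 14.2%, the motif CCAAT in 33.7, 37.9 and 38.0%, and the E-box CAGCTG in 18.4, 17.5 and 16.1%. A match only says that these letters were in the window.

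**Figure D4:**
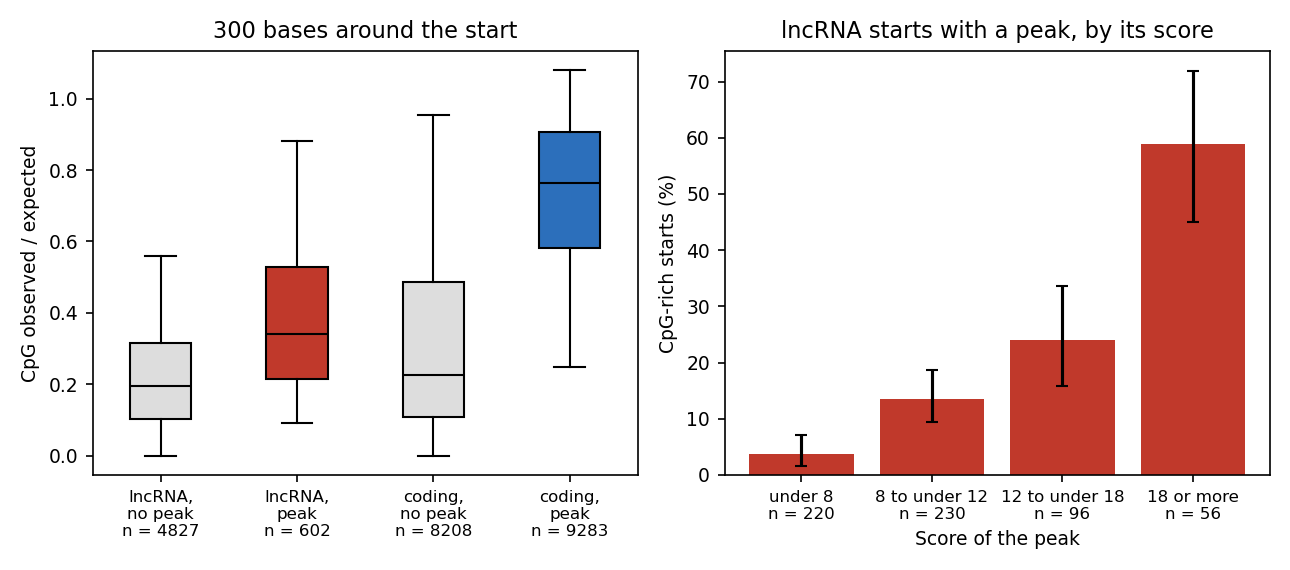
Left, the observed to expected ratio of CpG (y axis) in 300 bases around the start for lncRNA 5′ ends away from coding genes and for coding 5′ ends, without and with a peak (boxes show quartiles and median, whiskers the 5th and 95th percentiles). Right, the percentage of CpG-rich starts (y axis) among lncRNA starts with a peak in 4 bands of score (x axis), with 95% Clopper-Pearson intervals, running from 3.64 to 58.9%.

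The 20 highest-scoring intergenic lncRNA peaks ran from 28.93 down to 22.97, and in 18 of them the peak lay at a 5′ end. The strand was not known for the other two. The highest, on chromosome 15 from 37134564 to 37137017, ranked 291 in the whole list. It covered the starts of Gm41301 and Gm34820, which run in opposite directions, and lay 97031 bp from Grhl2, a grainyhead transcription factor gene. Gm33628 (28.64) lay 34988 bp from Yy1, which encodes a widely expressed transcription factor, and 9430091E24Rik (27.44) lay 5825 bp from Pdpr. Next were Gm29998 (27.09, nearest coding gene Lipo4 at 107181 bp), Zfp783 (26.79, near the zinc finger gene Zfp956), B230208H11Rik (25.95, near the syntaxin gene Stx11) and Gm16897 (25.95, near the surface antigen gene Cd34). Zfp783 has the name of a coding family and is counted here because the table gives it as lncRNA.

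Further peaks of this top group lay at A930006K02Rik (25.67, near the interferon receptor gene Ifnar1), Snhg20 (25.65, near Sec14l1), 1300002E11Rik (25.65, near Ehhadh) and Gm32810 (25.65). Gm32810 lay 551870 bp from its nearest coding gene, Dsel, and its peak covered an annotated start, with the midpoint 4 bp from it. Gm39783 (25.61, near 1700001O22Rik), D730003I15Rik (25.35, near the stress response factor gene Atf3), Gm41603 (25.06, near Zfp119b) and Gm46567 (23.86, near the mitochondrial fusion gene Opa1) followed. The last were Gm11205 (23.27, near Rab11fip4), LOC108168428 (23.27, near Zfp518a), Gm40716 (22.97, near Onecut3), Zfp652os (22.97, near Phb) and the pair 2700038G22Rik and Gm42228 (22.97, near Tomm7). In 18 of the 20 the nearest coding gene had a listed end peak of its own, with Lipo4 and Zfp518a as the exceptions. Over all 1013 peaks this share was 72.2%, and 20 peaks are too few to set the top group apart.

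At the lower end, Gm31720 (4.47, near Rps24), Gm39083 (4.57, near Rbbp6), and Gm13404, Gm26644 and Gm30093 (4.68 each, near Mvb12b, Pax2 and Arap3) had the lowest scores, and another peak tied with the last 3 at 4.68. The widest peaks were 4061 to 5438 bp long and scored from 7.07 to 14.32. They lay at Gm35833 (5438 bp, score 12.23, near Ndufb4), Gm52088 (5234 bp, 14.32, near Olfr750), Gm34661 (4489 bp, 8.05, near Ddx3x), Gm41530 (4227 bp, 8.95, near Tcte2) and Gm34307 (4061 bp, 7.07, near Ntrk2). None of these 5 was among the 20 with the highest scores.

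Host genes of snoRNAs, which guide the modification of ribosomal and spliceosomal RNA, had the highest median score of the lncRNA groups examined, 15.1 over 6 genes. Of 23 symbols 20 were in the table, and only 6 of these had an end away from coding genes. All 6 had an intergenic lncRNA peak, where 12.4% of all distant lncRNA genes and 24.2% of those with a symbol of their own did. Their scores were 25.65 at Snhg20, 16.7 at Snhg5, 16.11 at Snhg17, 14.08 at Snhg15, 12.29 at Snhg4 and 8.05 at Snhg11, so that all but Snhg11 lay above the list median of 11.93. Another 12 hosts, among them Gas5 (18.49), Zfas1 (18.2) and Snhg10 (19.99), had an end peak too near to a coding gene to be counted, and Snhg14 and Snhg18 had none. Snhg17 and Snhg11 are neighbours on chromosome 2, and their peaks started at 158360603 and 158375049.

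Host genes of miRNAs had a median score of 7.7 over 6 genes, each taken at its highest intergenic lncRNA peak. Of 14 genes named as miRNA hosts 13 had an end away from coding genes and 6 had an intergenic lncRNA peak, beside 12.4% of all distant lncRNA genes and 24.2% of those with a symbol of their own. These were Mir100hg (12.37, with a second peak of 8.65), Mir124a-1hg (10.74), Mir22hg (8.83), Mirc35hg (6.56), Mir670hg (5.67) and Mir124-2hg (5.37). Mir670hg also had an end peak of 18.91 that lay near or within a coding gene and was not counted. The miR-124 family is abundant in neurons, and the peaks at its hosts started at 64586780 on chromosome 14 and 17789767 on chromosome 3. Of the other hosts, Mir17hg, Mir155hg, Mir205hg, Mir1a-1hg and Mir9-3hg had no listed peak in or beside the gene, and Mir99ahg (6.26) and Mir217hg (9.84) had one only in the interior.

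How often lncRNA genes without a peak hold a miRNA gene was not counted. By position, 16 of the 1031 lncRNA genes with a peak held 24 miRNA genes of the RefSeq miRNA table, including hosts without a host name. Mir124a-1hg and Mir124-2hg are not among the 16. Dleu2 (12.83), which holds miR-15a and miR-16-1, and C430049B03Rik (10.14), which overlaps miR-322, miR-351 and miR-503 and whose strand was not known, are 2 such genes. The mature sequences below, from RefSeq on GRCm38.p6, are shown because genes on separate chromosomes share seeds (bases 2 to 8, in capitals). The first group of 3 has the seed AGCAGCA, the next pair CCCUGAG, and the last pair, both from Mirc35hg, differ in the last base of the seed.
mmu-miR-15a-5p at Dleu2: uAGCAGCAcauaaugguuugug
mmu-miR-16-5p at Dleu2: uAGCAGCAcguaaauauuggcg
mmu-miR-322-5p at C430049B03Rik: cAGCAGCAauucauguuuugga
mmu-miR-125b-5p at Mir100hg: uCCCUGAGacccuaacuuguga
mmu-miR-351-5p at C430049B03Rik: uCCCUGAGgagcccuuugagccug
mmu-miR-182-5p at Mirc35hg: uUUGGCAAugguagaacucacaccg
mmu-miR-96-5p at Mirc35hg: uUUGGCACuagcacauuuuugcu
A host gene peak marks the host's end and not the miRNA itself, and the level of these miRNAs was not measured here.

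Among lncRNAs studied in brain or neural development, 30 of 36 symbols were in the table, 27 had an end away from coding genes and 8 had an intergenic lncRNA peak, with a median score of 11.0. Beside the 12.4% of all distant lncRNA genes stands the 24.2% of those with a symbol of their own. Lncpint, a p53-induced lncRNA, had adjoining peaks of 19.99 and 12.73 at its 5′ end, and Oip5os1 one of 16.19. The Lncpint peak of 12.73 covered the annotated start, and the midpoint of the 19.99 peak lay 1784 bp downstream of it. Neat1, the scaffold of nuclear paraspeckles, had one of 11.33, Miat, a nuclear lncRNA of neurons, one of 10.46 and Kantr one of 8.95. The list also holds the hosts Mir100hg, Mir124a-1hg and Mir124-2hg given above.

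Several well-known neural lncRNAs lacked an end peak. Sox2ot, Pantr2, Six3os1, Meg3, Tunar, Otx2os1, Malat1 and Celrr had no listed peak in or beside the gene. Rmst (11.33), Dlx6os1 (10.44) and Pantr1 (6.26) had 1 peak, only in the interior, and Nkx2-2os had 2 there, the higher scoring 8.57. Crnde (12.23), Lhx1os (12.07), Fendrr (8.95), Pax6os1 (7.16), Tug1 (6.81) and the distance-excluded Cerox1 (8.65) had an end peak near a coding gene. The list deposited is part of a longer one, so a gene without a listed peak may have had one there.

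Among imprinted lncRNAs and those linked to X inactivation, the only intergenic lncRNA peaks were at 2 X-linked genes. The table held 12, of which 8 had a distant end and 2 had a peak, beside 12.4% of all distant lncRNA genes and 24.2% of those with a symbol of their own. These were Firre (8.65) and Xist (6.86), the RNA that coats the inactive X chromosome. H19, Meg3, Rian, Mirg, Jpx and Ftx had none, and the imprinted Peg13 (9.84) and Kcnq1ot1 (6.56) had end peaks near coding genes. No lncRNA of the Hox clusters had one. Only 4 of the 12 in the table had a distant end (Hotair, Hottip, Halr1 and Evx1os), too few to set 0 apart from the 12.4% of all distant lncRNA genes, and Haglr (14.91), Hotairm1 and Hotairm2 (7.76 each) had end peaks near coding genes.

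**Figure D5:**
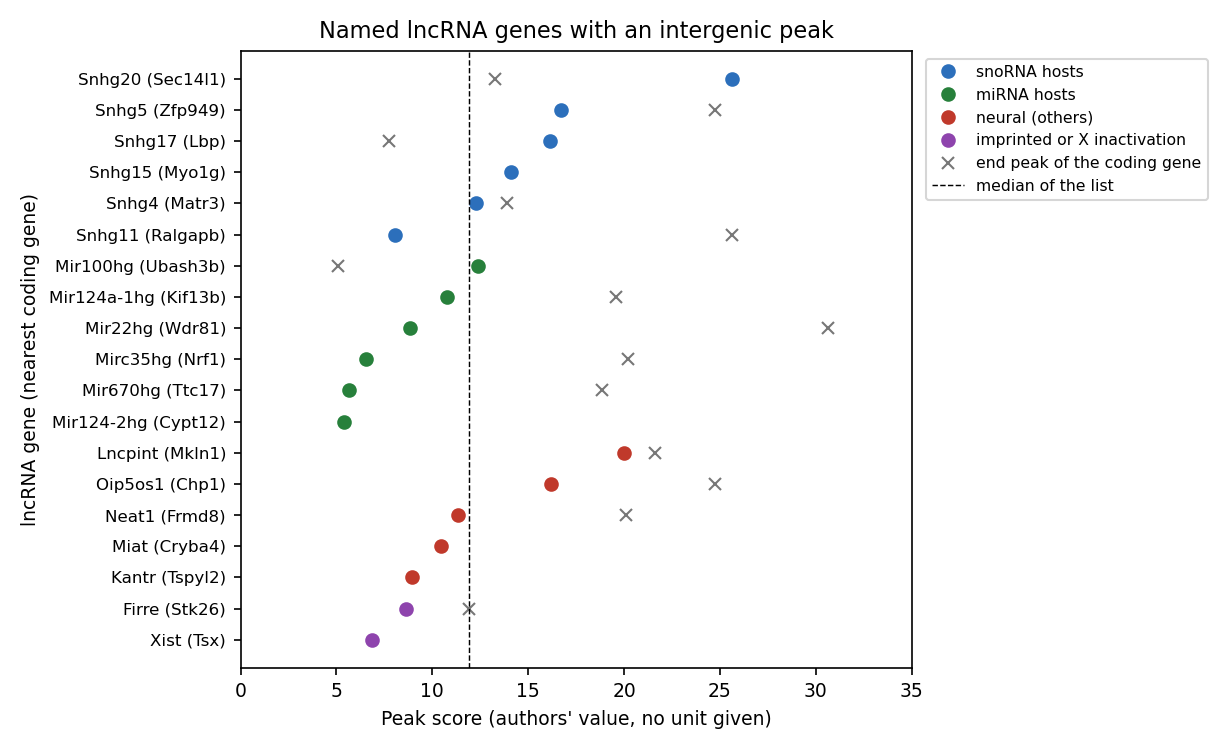
Score of the highest intergenic lncRNA peak (coloured points, x axis) at each named lncRNA gene of the lists (y axis, with its nearest coding gene in brackets), coloured by list. Grey crosses give the highest end peak of that coding gene where one is listed, and the dashed line is the list median of 11.93; 5 of the 6 snoRNA hosts lie above it, and 1 of the 6 miRNA hosts.

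Other lncRNAs with a symbol of their own covered a wide range of scores and of known roles. Trmt61b (21.77; listed as lncRNA), Dubr (21.06), Pvt1 (20.88, the neighbour of Myc), Cistr (19.73) and Dancr (14.02) were in the upper part. Lower scores were found at Bvht (11.63), described in heart development, Ptgs2os2 (8.65), an immune lncRNA beside Ptgs2, Norad (8.05), which binds Pumilio proteins, Chaserr (6.97), which controls its neighbour Chd2, and Morrbid (6.62), described in myeloid cells. Platr22 (14.02), Platr5 (6.62) and Platr26 (6.49), named for an association with pluripotency, were spread over this range. Bloodlinc (8.13), beside the red cell gene Slc4a1, and Lexis1 (12.97), described in liver, had peaks as well.

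Most peaks belonged to 1 gene and most genes to 1 peak. Of the 1013 peaks 937 lay at 1 lncRNA gene, 75 at 2 and 1 at 3 or more. Strands were known for all genes at 47 of these 76 shared peaks, and in 26 of the 47 at least 2 genes started at the peak and ran in opposite directions. Besides Gm41301 and Gm34820, this was so for LOC115487949 and Gm31676 (22.67), Gm41414 and Gm52265 (21.77) and Gm14321 and Gm32287 (20.28). The median score was 8.89 (7.46 to 10.6) at shared peaks and 8.65 (8.35 to 8.83) at peaks of 1 gene, so the intervals overlap.

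In the other direction, 972 genes had 1 such peak and 59 had 2, of which 45 had them at both ends and 14 at 1 end. The 10 of the 59 with the highest scores were Gm32810 (25.65 and 7.07), Gm39783 (25.61 and 19.99), Gm38506 (22.07 and 13.72), Gm35125 (19.99 and 9.25), Lncpint (19.99 and 12.73), Gm32525 (18.79 and 9.55), Gm38413 (18.49 and 7.16), Gm41907 (16.93 and 7.01), Gm32700 (16.41 and 6.56) and Gm38293 (16.11 and 13.42). Lncpint and Gm32700 had both peaks at the same end, where those of Lncpint adjoined each other, and the other 8 had 1 at each end. In all 10 the 2 scores differed.

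The coding genes next to these peaks mostly had a listed peak of their own. The median distance from the midpoint to the nearest coding gene end was 33780 bp (quartiles 14985 and 82401 bp), and 214 peaks (21.1%) lay over 100 kb away. The most distant, at 1700019L22Rik (17.6), was 1393496 bp from Tenm3, a teneurin adhesion gene. The 1013 peaks had 829 different nearest coding genes, and 600 of these (72.4%, 69.2 to 75.4%) had a listed peak within 1 kb of an end, against 55.4% (54.7 to 56.0%) of all coding genes. The other 4719 distant peaks had 2962 nearest coding genes, of which 70.0% (68.3 to 71.6%) had one, and this interval overlaps that of the intergenic lncRNA peaks.

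Distance changed this share little. The nearest coding gene had an end peak for 72.6% (67.4 to 77.4%) of 321 peaks at 5 to 20 kb and 68.7% (62.0 to 74.8%) of 214 peaks at over 100 kb. The peaks themselves were slightly lower further away, with median scores of 9.42 at 5 to 20 kb, 8.57 at 20 to 50 kb, 8.35 at 50 to 100 kb and 7.91 at 100 to 500 kb. At each of these distances the other peaks away from coding genes had a lower median, of 8.34, 8.05, 7.76 and 7.27.

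Transcription factor genes of neural development were the nearest coding gene of 40 intergenic lncRNA peaks (3.95%), at 33 of the 156 genes in the list. They were also nearest to 4.07% of the other distant peaks, and make up 0.717% of coding genes. Some were Sox genes, which encode factors of progenitor identity and differentiation. Sox4 had peaks at Gm52067 (14.62), 2610307P16Rik (10.14) and A330102I10Rik (8.05), and Sox11 had peaks at Gm4166 (7.65), Gm30515 and Gm9866 (6.86 each). Sox2 was nearest to Gm34941 (10.44), Sox1 to Sox1ot (9.55), Sox9 to Gm46301 (9.49), Sox5 to 4930579D09Rik (9.25) and Sox8 to Gm33801 (8.65). Sox1, Sox2, Sox4 and Sox5 had no listed peak at their own ends, while Sox8 (8.65), Sox11 (7.16) and Sox9 (6.4) had low ones. This was not so for the list as a whole, where 104 of the 156 genes (66.7%) had a listed end peak, beside 55.4% of all coding genes.

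Factors of the POU, Pax, Dlx and basic helix-loop-helix families followed. Pou3f1 was nearest to 4933407E24Rik (14.91) and 1700057H15Rik (8.05), Pou3f2 to Gm42262 (8.95) and Pou3f3 to Gm28175 (7.46). Pax8 was nearest to Gm39769 (11.33) and Pax2 to Gm26644 (4.68), and Dlx2, of forebrain interneurons, to Gm36909 (12.23). Tcf4, an E protein gene, had the highest value of the list, at Gm31294 (17.3), and a second at Gm31564 (10.74). The proneural gene Neurog1 was nearest to 4930550C17Rik (7.46). Id4, Id2 and Hes1, whose products hold back differentiation, were nearest to Gm36183 and Gm52029 (8.35 each), Gm36886 (7.23) and 4632428C04Rik (8.05).

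Further factors of the list had 1 peak each. Scores above the median of all 1013 peaks were found where the nearest coding gene was Myt1l (Gm31569, 13.42), Zfhx3 (D030068K23Rik, 12.42), Satb1 (Gm31143, 10.74), Lmx1b (Gm33642, 10.44), Tshz2 (Gm46788, 10.06), Tshz1 (Gm31621, 9.84) or Nr2f1 (Gm31946, 8.95). At or below that median were Zic5 (Gm5089, 8.65), Zbtb18 (Gm30013, 8.35), Emx1 (Gm33200, 8.05), Foxd1 (Gm46437, 7.76), Ebf2 (Gm30438, 7.46), Foxp4 (Gm29938, 6.49) and Zeb2 (Gm13470, 5.97). Across these further factors the distance ran from 8545 bp (Zic5) to 1326617 bp (Zeb2), and it was 247179 bp for Myt1l. The 40 peaks had a median score of 8.65, equal to that of all intergenic lncRNA peaks. Nearest here means by distance alone, and no link between lncRNA and gene was tested.

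Genes of the Wnt, FGF, BMP, Notch and Hedgehog pathways make up 0.519% of coding genes. They were nearest to 8 of the peaks (0.79%) and to 1.99% of the other distant peaks. The highest were D130051D11Rik (21.18), 52948 bp from the ligand gene Wnt7b, and Gm38585 (15.81), 6873 bp from the receptor gene Notch3. Gm30709 (8.65) lay near the Hedgehog receptor gene Ptch1, 4930594O21Rik (7.07) and Gm46799 (6.49) near Spry1, an inhibitor of FGF signalling, and 2810433D01Rik (5.97) and Gm41177 (5.07) near the Wnt receptor genes Fzd2 and Fzd3. The last, Gm33370 (7.16), lay near Bmp2k, a kinase gene that the name pattern took in.

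Adhesion and axon guidance genes were nearest to 18 peaks (1.78%), against 2.14% of the other distant peaks, and make up 1.04% of coding genes. Besides Tenm3, genes nearest to a peak that scored above 11 were Unc5a (Gm40959, 13.34), a netrin receptor gene, Ephb3 (Gm16863, 11.63 and 8.65) and Adgrl2 (Gm40174, 11.17, at 824663 bp, and Gm30382, 6.56, at 455985 bp). The others were Epha1 (9.84), Cdh6 (8.65), Ntn1 (8.35), Adgrl4 (8.24), Pcdh1 (8.05 and 6.26), Unc5b (6.86), Sema4b (6.62), Slitrk3 (6.56), Efna5 (5.97), Cdh26 (5.67) and Sema6a (5.18). The peak with Unc5b as its nearest coding gene lay at Pldi, 105385 bp from it, and the one with Ntn1 at Gm31954. The median over the 18 was 8.14.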

How the data were processed

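The peak list is one deposited table for the H2AZ ChIP library, with a chromosome, start, end, name and score per line and no header. The peak names carry the name MACS, per the deposited file; the submitters' processing notes name CASAVA 1.4, Bowtie2 2, FastQC and mm9, while the caller's settings and control are not stated there. The score is the authors' value, deposited without a unit. Peak numbers reach 32646 and 21592 peaks are listed, by a criterion not given in the sources used here. Starts and ends, the other deposited columns used, are printed counted from 1. Positions were read as GRCm38, because 51.6% of peaks lay at coding gene ends of the RefSeq GRCm38.p6 table and 8.26 to 12.2% did after shifts of 10, 100 or 1000 kb. Left out were 46 peaks named after the last Y peak, which left 21546, and 402 genes on other sequences, which left 49591. Another 2 peaks, beside gene entries without a position, stayed among the 21546 but were not counted as away from coding genes.

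Where a peak lay at several lncRNA genes, the one with the nearest end is named. Strand and start sites came from the RefSeq promoter table, which held 789 of the 1031 genes. Read depth is unknown. Named are the 20 highest, 5 widest and 5 lowest peaks, list members with a peak, 10 genes with 2 peaks, peaks at the 5 kb limit, and list genes nearest to a peak; other names were chosen after their values were seen. Some genes that this rule would name are not reported here. Members and lists were chosen with earlier results of these data known. Alternatives covered windows, distances, overlap by midpoint, higher scores, merged peaks, out-of-order peaks and named symbols. Python 3.11.15, numpy 2.4.6, pandas 2.3.3, scipy 1.17.1 and matplotlib 3.10.9 were used, and membership was tested on 1500 simulated peaks, with 0 differences from a direct comparison.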

Additional observations from a re-analysis of the deposited data

How the results depend on the processing

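Of 57 values under alternative settings, 42 stayed within the interval of the reported value (for counts, within 1.5 times) and 15 moved. The share of distant lncRNA genes with a peak was 10.9% with windows of 500 bp, 14.8% with windows of 2 kb and 9.59% with the midpoint in the window, against 12.4%. With scores at or above the list median, there were 243 peaks at 258 lncRNA genes (3.11% of distant ones), with a median score of 14.91 and a median width of 2041 bp; their nearest coding gene had such an end peak in 60.9% of cases, where 44.4% of all coding genes did. With named symbols alone, there were 69 peaks at 66 genes (24.2%), with medians of 9.25 and 1833 bp. Requiring a CpG ratio of at least 0.75 and a GC content of at least 55%, a choice made after seeing the data, 8.31% of starts with a peak were CpG-rich in place of 15.8%. The share at 5′ ends was 73.9% at genes of 10 kb or more and 72.0% at genes of any length, also chosen after seeing the data. No paired analysis was possible because each group had 1 library. Unknown depth, a shortened list and predicted gene models limit what the lack of a peak shows.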

Other observations

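For each chromosome, the share of distant lncRNA genes with an intergenic lncRNA peak was counted, and differences between chromosomes were not tested. The share was 12.5% (11.8 to 13.3%) over autosomes. Single autosomes ran from 8.67% on chromosome 8 (39 of 450 genes) to 17.0% on chromosome 17 (52 of 306). On X the share was 8.33% (5.01 to 12.9%), with 18 of 216 genes, and this interval overlaps that of the autosomes. On Y, 0 of 30 distant lncRNA genes had a peak (0 to 11.6%). Seen from the peaks, 17 of the 63 distant peaks on X (27.0%) lay at a lncRNA gene end, beside 17.7% of all distant peaks. This was the highest share of any chromosome but rests on few peaks, and chromosome 17 was next with 23.6%. The 17 peaks on X included those at Firre, Xist, Kantr, AW822252 (11.33) and Kis2 (8.35). Chromosome 13 held the most intergenic lncRNA peaks, 76, followed by chromosome 2 with 75.

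Some coding genes were nearest to several of these peaks. Of 829 nearest coding genes 694 had 1, 135 had 2 or more and 34 had 3 or more. Cstad and Gm40514 had 6 each, with top scores of 10.44 and 7.76, and Rps24 and Zmiz1, both on chromosome 14, had 5 each, with top scores of 11.33 and 13.12. Cryba4 had 4, among them the peak at Miat, and Noct and Btrc had 4 each. Mycn, a proliferation gene of progenitors, had 3 at Gm40270 and Gm35155, the highest scoring 9.84. These genes were picked by count after their values were seen, without regard to the length of the gap between coding genes.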
